A study of Mus musculus with 34 samples.

Results

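Glucuronidation and sulfation are the conjugation steps by which the liver makes drugs, bilirubin, steroids, thyroid hormones and bile acids more soluble before they leave the cell. The genes of both steps were followed here through liver regeneration: 25 genes, 17 of the UDP-glucuronosyltransferase (Ugt) and 8 of the sulfotransferase (Sult) families, of 42 genes with such a name and of 78298 genes in the table. They were chosen by name (Ugt1a, Ugt2a, Ugt2b, Ugt3a and Sult, pseudogenes left out) and by at least 10 counts in at least 4 libraries. The rule holds no fold change, but it was set with earlier results of these data known. All 25 also passed the filter on low values that left 14980 genes to test. Of the 17 genes left out, Sult2a1, Sult3a1 and Sult3a2, which mark the female mouse liver, reached at most 3, 1 and 1 counts in any library, and Ugt1a8 reached 67.3 counts but held 10 in 3 libraries only.

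RNA was sequenced from bulk liver of male mice aged 8 to 12 weeks on a C57/Bl6 background. SIRTintKO mice carried the Villin-Cre transgene, which acts in the intestinal epithelium, together with Sirt1 alleles whose exon 4 is flanked by loxP sites (B6;129-Sirt1tm1Ygu/J), so that the deletion is intestinal and the liver itself keeps Sirt1. The mice called WT carried the same floxed alleles without Cre. Livers were untreated (0 h) or were taken 6 h or 24 h after partial hepatectomy (PHx) that removed 70% of the organ, with 6, 6 and 4 libraries for WT and 6, 5 and 7 for SIRTintKO. These numbers follow the sample labels, and those in the study's text differ from them for WT at 6 h and 24 h. The 0 h mice had no operation, so that surgery, anaesthesia and handling cannot be told apart from PHx. At 6 h the hour of collection cannot be told apart from PHx either. Their libraries also carry a number series of their own. Any difference that goes with that series cannot be told apart from the change after PHx.

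Ugt enzymes sit in the endoplasmic reticulum and transfer glucuronic acid from UDP-glucuronic acid. The Ugt1a genes share their last exons and differ by a first exon with a promoter of its own, Ugt2 genes are separate copies clustered on 1 chromosome, and Ugt3 enzymes use other UDP sugars. Sult enzymes are cytosolic and transfer sulfate from PAPS: Sult1 members act mostly on phenols, catechols, thyroid hormones and estrogens, Sult2 members on steroids and bile acids. Levels are given as CPM (counts scaled to library size) after TMM normalization, and a gene is called higher or lower where its adjusted p by edgeR's quasi-likelihood test was under 0.05 and its log2 fold change beyond 1.

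Library totals ran from 14892122 to 23480492 counts. Liver Sirt1 did not check the labels, since the deletion is intestinal: its log2 difference between genotypes was -0.02, -0.13 and -0.65 at 0, 6 and 24 h, none of which was called. All 10 hepatocyte markers were present, with a summed level of 63655 to 109382 CPM over all libraries. Of the 11 libraries at 24 h, 3 stood apart from the other 8 on the first principal component over all genes tested: WT replicates 3 and 4 and SIRTintKO replicate 5 lay at -8.02, -17.6 and 8.10, against 49.7 to 95.9 for the other 24 h libraries, 11.1 to 39.1 at 6 h and -78.2 to -51.0 at 0 h. In these 3 libraries the neutrophil and monocyte markers (9 of 10 tested) summed to 10.01 to 31.02 CPM, against 107 to 1114 in the other 8. The clock gene Bmal1 stood at 20.98 to 24.7 CPM in the 3 and at 2.05 to 11.2 CPM in the other 8. It ran from 21.7 to 32.5 CPM at 0 h and from 0.943 to 8.37 CPM at 6 h. The values at 24 h are therefore given with and without these libraries, a choice made after their values were seen, and without them WT is left with 2 libraries at 24 h.

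Before surgery Ugt2b5 and Sult2a8 had the highest mean levels per kilobase of the 25 in both genotypes. Per kilobase of the longest annotated transcript, Ugt2b5 stood at 320 ± 47.7 CPM per kb in WT at 0 h (SD, n = 6), Sult2a8 at 277 ± 57.8, Ugt2b36 at 216 ± 34.3, Ugt2b1 at 211 ± 46.2, Sult1a1 at 178 ± 37.9 and Ugt1a1 at 165 ± 20.1. Neighbours in this order differed by less than the larger of their SDs, except Sult2a8 and Ugt2b36. At the other end, Sult1e1, the estrogen sulfotransferase, stood at 0.161 ± 0.197 CPM per kb. Summed over the 25 genes, the level was 4108 ± 546 CPM in WT at 0 h and 4392 ± 518 in SIRTintKO (SD, n = 6 each). It was 2260 ± 532 (n = 6) and 2500 ± 374 (n = 5) at 6 h, and 1637 ± 329 (n = 4) and 1921 ± 412 (n = 7) at 24 h. Each library at 6 or 24 h lay below each library at 0 h, whose lowest sum was 3163 CPM. In bulk liver, fewer cells of a type and less RNA per cell cannot be told apart.

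At 6 h, 11 of the Ugt and Sult genes had fallen in both genotypes, and 1 abundant gene, Sult1a1, had risen in both. In WT, 13 of the 25 were called lower and 2 higher, where 8.40% of all genes tested were called lower and 7.17% higher. In SIRTintKO, 12 were called lower and 1 higher, against 8.70% and 7.86% of all genes. The median log2 fold change of the 25 was -1.01 in WT and -1.04 in SIRTintKO, beside 0.02 and 0.01 over all genes. Called lower in both genotypes were 11 genes: Sult1b1, Sult1c2, Sult2a8, Sult5a1, Ugt1a7c, Ugt1a9, Ugt2a3, Ugt2b1, Ugt2b34, Ugt2b35 and Ugt2b36. The share of all genes called lower in both was not counted. In WT, Ugt2b35 (log2 fold change -2.04 ± 0.32 SE, adjusted p = 9.02e-06) and Sult1c2 (-2.17 ± 0.46, adjusted p = 0.000439) fell furthest among the genes other than the scarce Ugt1a10. Several genes lay beside the threshold of 1: in WT, Ugt1a9 at -1.01 was called, while Ugt2b5, just short of it, was not. The comparisons of 6 h and 24 h within a genotype share their 0 h libraries.

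At 24 h, 17 genes in WT and 15 in SIRTintKO were lower than at 0 h, and Sult1e1 had risen from near 0. In WT 1 was called higher, and 7.40% of all genes were called lower and 8.32% higher. In SIRTintKO 3 were called higher, and 11.1% of all genes were called lower and 11.9% higher. The medians were -1.41 and -1.51, beside 0.02 and 0.04 over all genes. Without the 3 libraries that stood apart, 19 were called lower and 2 higher in WT, and 14 lower and 3 higher in SIRTintKO. In that fit 16.4% of all genes were called lower and 14.5% higher in WT, and 11.8% and 14.2% in SIRTintKO. The 19 in WT include Ugt1a10, at 0 in both remaining libraries, and Sult2a7, at 1 count in 1 of them, so that neither has a usable fold there. Over both times and genotypes, 8 genes were called lower in all 4 comparisons with 0 h: Sult1c2, Sult2a8, Sult5a1, Ugt1a9, Ugt2a3, Ugt2b1, Ugt2b34 and Ugt2b36. In at least 1 of them 19 were called lower, while Sult1d1, Sult2a7 and Ugt2b37 were called in neither direction. The shares of all genes with such joint calls were not counted, so that these counts have no measure beside them.

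**Figure D1:**
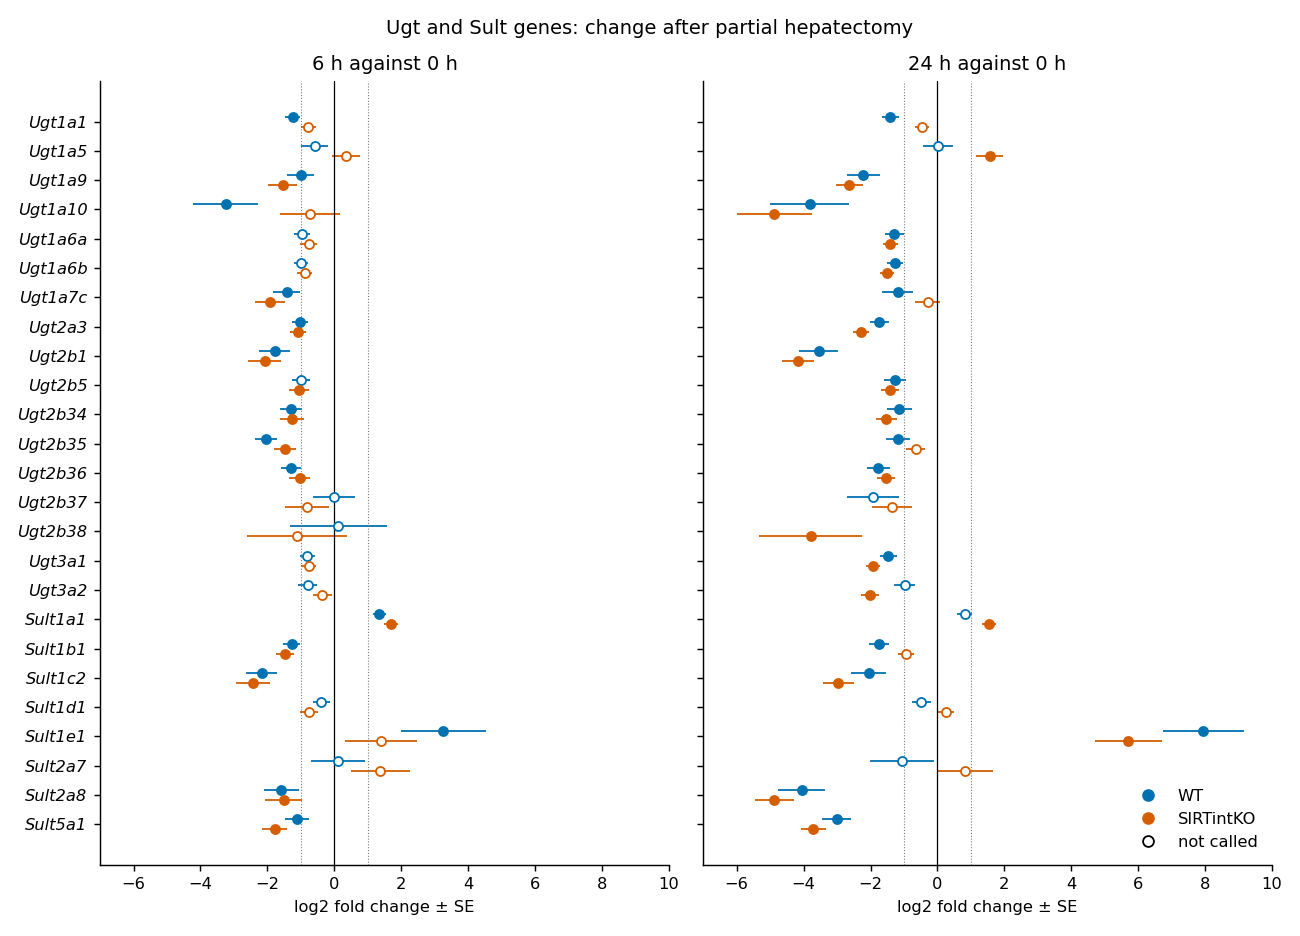
Log2 fold change against 0 h (x axis, ± SE) of the 25 Ugt and Sult genes at 6 h (left) and 24 h (right) in WT and SIRTintKO. Filled points are called, open points are not, dotted lines mark a log2 fold change of 1 in either direction, and Ugt2b38 in WT at 24 h is left out because all 4 libraries were at 0. Most points lie left of 0, with Sult1e1, Sult1a1 and, in SIRTintKO at 24 h, Ugt1a5 called to the right.

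Between 6 and 24 h, 3 genes were called lower and 1 higher in WT (2.72% and 4.44% of all genes), and 8 lower and 4 higher in SIRTintKO (3.91% and 6.70%). Sult2a8 (log2 fold change -2.47 ± 0.65 in WT and -3.35 ± 0.55 in SIRTintKO), Sult5a1 (-1.91 ± 0.43 and -1.93 ± 0.37) and Ugt2b1 (-1.77 ± 0.53 and -2.09 ± 0.45) went on falling in both genotypes. In SIRTintKO, Ugt1a7c (1.64 ± 0.44), Ugt1a5 (1.2 ± 0.43) and Sult1d1 (1.01 ± 0.26) rose over the same interval. In WT they stood at 0.24 ± 0.46, 0.61 ± 0.44 and -0.10 ± 0.29. The difference between genotypes over this interval was not tested. None of the 4 WT calls held in a fit of these groups alone, and Ugt2b1 in WT was lost without WT 24 h replicate 1 or 2 (adjusted p up to 0.0872). In SIRTintKO the calls of Ugt1a9, Sult1d1 and Ugt1a5 were lost in 18, 7 and 6 of 34 fits that left out 1 library. Without the libraries that stood apart the count in WT changed from 3 lower and 1 higher to 12 lower and 2 higher, while the shares over all genes went to 10.3% and 8.72%. Without WT 24 h replicate 4 the WT value of Sult2a8 was -3.27.

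Of the Sult1 genes, Sult1e1 and Sult1a1 rose. Sult1e1 inactivates estrogens by sulfation and is scarce in the untreated male mouse liver. Its lowest, median and highest levels were 0, 0.162 and 0.66 CPM in WT at 0 h and 0, 0.396 and 2.30 CPM in SIRTintKO. At 6 h it ran from 1.17 through 1.64 to 3.97 CPM in WT, and stood at 1.67, 1.76, 2.64, 1.76 and 1.62 CPM in the 5 SIRTintKO libraries. At 24 h the 4 WT libraries held 83.4, 117, 0.262 and 0.348 CPM, and SIRTintKO ran from 1.27 through 38.3 to 65.8 CPM. The 8 libraries at 24 h that did not stand apart (13.9 to 117 CPM) thus lay above every library of the earlier times. The 3 that stood apart (0.262 to 1.27 CPM) lay within the range of 0 h. The log2 fold change at 24 h against 0 h was 7.95 ± 1.2 in WT (adjusted p = 1.34e-05) and 5.70 ± 1.00 in SIRTintKO (adjusted p = 2.76e-05), and 8.98 ± 0.65 and 5.96 ± 0.51 without those 3 libraries. Leaving out 1 library moved the WT value to 7.11 (WT 24 h replicate 2) or 8.70 (WT 0 h replicate 5) and the SIRTintKO value to 6.52 (SIRTintKO 0 h replicate 2). The neutrophil and monocyte markers were likewise lower in the 3 libraries than in the other 8. So were the cholangiocyte markers (7 of 8 tested), which summed to 65.6 to 94.7 CPM in the 3 libraries, 114 to 505 in the other 8 and 47.9 to 76.3 at 0 h. In WT 24 h replicates 1 and 2, with Sult1e1 at 83.4 and 117 CPM, the order was the opposite. There the neutrophil and monocyte markers summed to 166 and 108 CPM and the cholangiocyte markers to 505 and 283 CPM. The part of either in the result was not tested. At 6 h the rise passed in WT (3.26 ± 1.26, adjusted p = 0.0407, or 4.01 without WT 0 h replicate 5) and not in SIRTintKO (1.40 ± 1.08, adjusted p = 0.315, or 0.0485 without the 3 libraries), but the interaction was not called, while leaving out single libraries ended the WT call in 8 of 34 fits, with adjusted p up to 0.0824 (without WT 0 h replicate 1, 2, 3, 4 or 6, or WT 6 h replicate 2, 3 or 6). The 250 bases before the RefSeq start of Sult1e1 (GRCm38.p6, chr5:87591612-87591861, minus strand) are shown with those of Sult1a1 (chr7:126676419-126676668, minus strand), the genes of this group that rose, and of Sult2a8 (chr7:14438552-14438801, minus strand, 1 of its 2 listed starts), the abundant gene that fell furthest at 24 h. Letters of known motifs were searched in all 32851 RefSeq promoters of this length, on both strands, and stand in capitals here. Part of the HNF1 site, GTTAAT, was in 6.43% of all promoters. The nuclear receptor letters AGGTCA were in 14.02% of them. The C/EBP letters TTGCNNAA were in 9.56%, and the STAT letters TTCNNNGAA in 7.02%. The antioxidant response letters TGACNNNGC were in 10.2%, and the xenobiotic response letters GCGTG in 28.2%. The E-box CACGTG was in 6.02%, and the TATA box TATAAA in 12.4%.
Sult1e1: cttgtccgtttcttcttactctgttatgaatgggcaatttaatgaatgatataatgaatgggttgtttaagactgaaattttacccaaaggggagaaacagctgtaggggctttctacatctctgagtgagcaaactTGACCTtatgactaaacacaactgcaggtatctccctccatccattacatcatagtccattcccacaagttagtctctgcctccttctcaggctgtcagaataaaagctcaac
Sult1a1: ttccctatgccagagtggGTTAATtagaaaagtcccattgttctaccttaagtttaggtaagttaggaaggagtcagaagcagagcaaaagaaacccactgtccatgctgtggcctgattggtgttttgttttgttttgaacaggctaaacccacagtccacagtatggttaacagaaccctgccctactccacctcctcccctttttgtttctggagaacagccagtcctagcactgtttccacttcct
Sult2a8: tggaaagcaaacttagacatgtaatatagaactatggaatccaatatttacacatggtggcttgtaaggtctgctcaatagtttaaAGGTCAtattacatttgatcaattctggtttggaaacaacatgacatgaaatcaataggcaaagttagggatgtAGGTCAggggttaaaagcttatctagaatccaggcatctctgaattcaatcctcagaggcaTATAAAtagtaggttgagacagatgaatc

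Sult1e1 holds 1 match, to AGGTCA at -113 from the start, Sult1a1 holds 1, to GTTAAT at -232, and Sult2a8 holds 3, to AGGTCA at -164 and -90 and to TATAAA at -29. Across the 24 promoters listed for 22 of the 25 genes, 10 hold AGGTCA, 8 hold GTTAAT, 3 each hold TTGCNNAA, GCGTG and TATAAA, 1 holds TTCNNNGAA, and none holds TGACNNNGC or CACGTG. These promoters are not independent: Ugt2b5, Ugt2b36, Ugt2b37 and Ugt2b38 hold AGGTCA within the same longer run of letters. The counts can therefore not be set against the shares of all promoters. In Sult1e1, in the GTTAAT matches of Ugt1a1 and Ugt1a9 and in the TTGCNNAA match of Ugt2b5, all shown here or further on, the capitals show the reverse complement, since the match lies on the other strand. A match is a run of letters and not a site shown to be bound.

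Sult1a1, the main phenol sulfotransferase of the liver, rose by 6 h. It ran from 183 through 236 to 330 CPM in WT at 0 h and from 142 through 205 to 273 CPM in SIRTintKO, and from 395 through 537 to 898 CPM in WT at 6 h. The 5 SIRTintKO libraries at 6 h held 632, 703, 733, 476 and 808 CPM, and no library at 6 h overlapped those at 0 h. The log2 fold change was 1.35 ± 0.21 in WT (adjusted p = 6.16e-06) and 1.70 ± 0.21 in SIRTintKO (adjusted p = 4.46e-07). At 24 h the 4 WT libraries held 522, 516, 336 and 357 CPM, and SIRTintKO ran from 399 through 680 to 734 CPM. The change from 0 h at 24 h was called in SIRTintKO (1.54 ± 0.20, adjusted p = 4.47e-07) and not in WT (0.82 ± 0.22, adjusted p = 0.00528), where the fold threshold was missed, and WT was called at 1.12 without the libraries that stood apart.

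**Figure D2:**
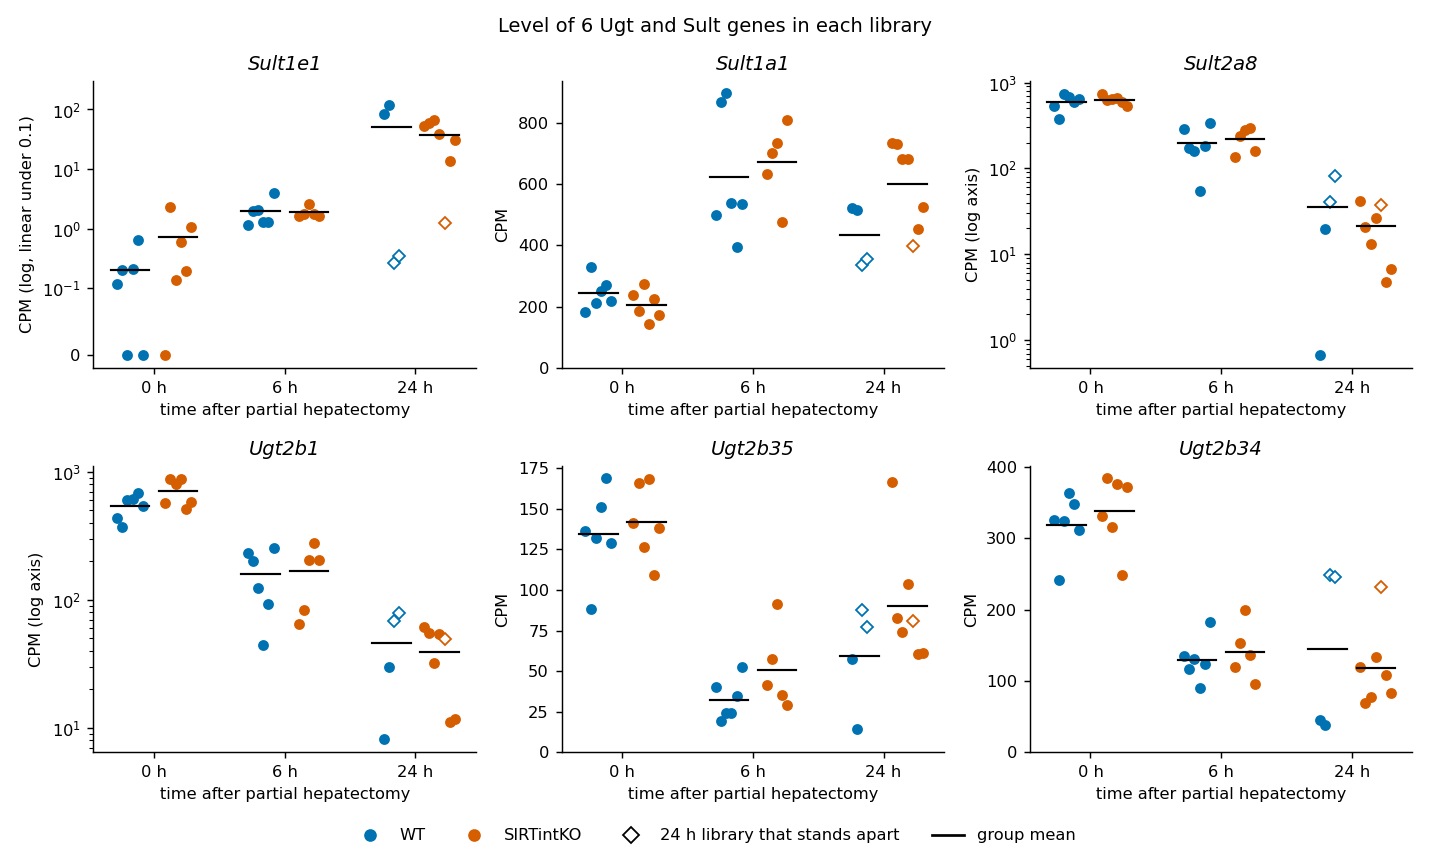
CPM (y axis, logarithmic for Sult2a8 and Ugt2b1 and, above 0.1, for Sult1e1) of 6 genes in each of the 34 libraries by time and genotype, with the mean of each group as a bar and the 3 libraries that stood apart at 24 h as open diamonds. Sult1e1 spans 13.9 to 117 CPM in the other 8 libraries at 24 h and 0.262 to 1.27 CPM in the diamonds, which also hold the highest Ugt2b34 levels of that time, 232 to 249 CPM.

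Sult2a8, a bile acid sulfotransferase of the mouse liver, fell furthest among the abundant genes at 24 h. It ran from 381 through 622 to 733 CPM in WT at 0 h and from 537 through 641 to 732 CPM in SIRTintKO. At 6 h it ran from 54.3 through 178 to 336 CPM in WT and stood at 137, 241, 278, 292 and 157 CPM in SIRTintKO, all under the lowest 0 h library. At 24 h the WT libraries held 0.676, 19.8, 41.1 and 81.2 CPM, and SIRTintKO ran from 4.73 through 20.8 to 41.8 CPM. The log2 fold change at 24 h was -4.06 ± 0.70 in WT (adjusted p = 7.04e-05) and -4.87 ± 0.57 in SIRTintKO (adjusted p = 8.81e-08), that is 16.6-fold and 29.3-fold lower. The WT value was -4.85 without WT 24 h replicate 4 and -5.82 without the 3 libraries that stood apart. At 6 h it was -1.58 ± 0.53 in WT and -1.52 ± 0.57 in SIRTintKO, and the SIRTintKO call was lost without SIRTintKO 0 h replicate 1 or 6 h replicate 1, 2 or 5, with adjusted p up to 0.0676.

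Sult5a1 was lower at both times. In WT its levels ran from 7.76 through 15.7 to 34.7 CPM at 0 h, ran from 4.28 through 9.05 to 11 CPM at 6 h, and stood at 0.307, 2.29, 3.98 and 2.04 CPM at 24 h. In SIRTintKO they ran from 17.2 through 23.9 to 38.5 CPM at 0 h, stood at 7.05, 11.7, 6.54, 7.34 and 4.37 CPM at 6 h, and ran from 1.07 through 1.75 to 3.13 CPM at 24 h. The 24 h libraries lay below every 0 h library, and those at 6 h overlapped those at 0 h in WT and not in SIRTintKO. Its log2 fold change at 24 h was -3.02 ± 0.45 in WT (adjusted p = 1.06e-05) and -3.71 ± 0.37 in SIRTintKO (adjusted p = 6.23e-09), and its WT call at 6 h (-1.11 ± 0.35) was lost without WT 0 h replicate 5 or WT 6 h replicate 6. Sult1b1, a thyroid hormone sulfotransferase, fell at 6 h in both genotypes (-1.27 ± 0.25 and -1.48 ± 0.27) and at 24 h in WT (-1.76 ± 0.30), and stood at -0.93 ± 0.24 in SIRTintKO at 24 h. Sult1c2 was scarce, and fell in all 4 comparisons, by 2.05 to 2.96 on the log2 scale. In WT it ran from 1.15 through 1.54 to 1.94 CPM at 0 h, ran from 0.0653 through 0.293 to 0.623 CPM at 6 h, and stood at 0, 0.343, 0.419 and 0.697 CPM at 24 h. In SIRTintKO it ran from 0.92 through 1.17 to 2.37 CPM at 0 h, stood at 0.257, 0.282, 0.252, 0.364 and 0.18 CPM at 6 h, and ran from 0 through 0.217 to 0.301 CPM at 24 h. No library at 6 or 24 h reached the lowest 0 h library. Sult1d1, which sulfates catecholamines and phenols in the mouse, was called in none of the comparisons with 0 h, and Sult2a7 varied among mice from 0 to 4.17 CPM with no call in the fit of all libraries.

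Calls differed among the Ugt1a genes of chromosome 1, though the differences between these genes were not tested. Ugt1a1 conjugates bilirubin, and its promoter is shown with those of Ugt1a9, a phenol glucuronosyltransferase that fell at both times in both genotypes, and Ugt1a5, which rose in SIRTintKO at 24 h (GRCm38.p6, plus strand, chr1:88211709-88211958, chr1:88070529-88070778 and chr1:88165762-88166011). Capitals mark matches to the letters listed above, GTTAAT at -41 in Ugt1a1, AGGTCA at -201 and GTTAAT at -91 in Ugt1a9 and GCGTG at -49 in Ugt1a5.
Ugt1a1: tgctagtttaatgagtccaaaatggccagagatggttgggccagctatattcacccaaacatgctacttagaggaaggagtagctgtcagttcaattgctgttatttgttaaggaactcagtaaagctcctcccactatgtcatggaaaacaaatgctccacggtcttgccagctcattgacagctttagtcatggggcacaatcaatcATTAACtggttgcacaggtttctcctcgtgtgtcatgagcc
Ugt1a9: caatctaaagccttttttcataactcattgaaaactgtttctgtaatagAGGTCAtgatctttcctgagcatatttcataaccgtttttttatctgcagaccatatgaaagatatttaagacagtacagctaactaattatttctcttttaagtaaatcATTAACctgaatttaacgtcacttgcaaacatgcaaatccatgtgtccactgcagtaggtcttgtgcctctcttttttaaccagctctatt
Ugt1a5: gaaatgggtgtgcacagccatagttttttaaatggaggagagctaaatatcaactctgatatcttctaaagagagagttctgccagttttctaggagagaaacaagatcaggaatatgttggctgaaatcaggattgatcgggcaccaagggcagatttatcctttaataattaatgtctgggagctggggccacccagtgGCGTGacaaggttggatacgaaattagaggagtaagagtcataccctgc

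Reads from the shared last exons had to be divided among the Ugt1a genes by the authors' quantification. Of the 31-base words in its annotated transcripts (GENCODE vM21), Ugt1a1 shared 58.5% with another Ugt or Sult gene, Ugt1a5 65.1%, Ugt1a9 66.8% and Ugt1a6b 84.2%, most of them with Ugt1a6a, and the counts of Ugt1a1, Ugt1a5, Ugt1a6a, Ugt1a6b, Ugt1a7c and Ugt1a9 were fractional in 100% of the libraries. Single Ugt1a genes are therefore less certain than their sum. The sum over the 9 Ugt1a genes, Ugt1a2 and Ugt1a8 included, fell from 667 ± 59.7 CPM in WT at 0 h (SD, n = 6) to 311 ± 63.0 at 6 h (n = 6) and 271 ± 50.6 at 24 h (n = 4), log2 fold changes of -1.10 ± 0.16 SE (adjusted p = 2.53e-06) and -1.30 ± 0.18 (adjusted p = 5.44e-06). In SIRTintKO the sum stood at 628 ± 92.1 CPM at 0 h (n = 6), 364 ± 71.9 at 6 h (n = 5) and 392 ± 90.3 at 24 h (n = 7), with log2 fold changes of -0.79 ± 0.17 and -0.68 ± 0.15, whose adjusted p (0.000411 and 0.000442) passed while the fold threshold did not. The difference between genotypes in the change at 24 h was 0.62 ± 0.23 (adjusted p = 0.263).

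Ugt1a1 ran from 314 through 364 to 446 CPM in WT at 0 h and from 287 through 318 to 437 CPM in SIRTintKO. At 24 h the 4 WT libraries held 213, 131, 113 and 93.5 CPM and SIRTintKO ran from 126 through 241 to 386 CPM. Ugt1a1 was called lower in WT at 6 h (-1.25 ± 0.22, adjusted p = 4.31e-05) and 24 h (-1.41 ± 0.25, adjusted p = 0.000103), and in SIRTintKO it stood at -0.77 ± 0.23 (adjusted p = 0.00813) and -0.45 ± 0.21 (adjusted p = 0.067). Ugt1a5 rose 2.95-fold in SIRTintKO at 24 h (log2 1.56 ± 0.40, adjusted p = 0.002), from a range of 10.7 to 30.3 CPM with a median of 17.8 at 0 h to 12.01 to 77.1 CPM with a median of 62.6. The 12.01 CPM belongs to the library that stood apart, and the other 6 held 52.2 CPM or more, above every 0 h library of either genotype. At 6 h the SIRTintKO libraries held 15.3, 14.2, 33.9, 27.7 and 33.4 CPM. In WT Ugt1a5 ran from 17.5 through 28.5 to 44.5 CPM at 0 h and from 9.72 through 19.1 to 30.04 CPM at 6 h. In WT the 4 libraries held 73.7, 27.7, 11.4 and 10.7 CPM at 24 h, the last pair being those that stood apart, and the log2 fold change was 0.02 ± 0.45, or 0.77 without them. The share of Ugt1a counts given to Ugt1a5 was 3.08% ± 0.95 in SIRTintKO at 0 h (SD, n = 6) and 14.3% ± 4.75 at 24 h (n = 7), and in WT 4.55% ± 1.87 (n = 6) and 10.8% ± 8.57 (n = 4).

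**Figure D3:**
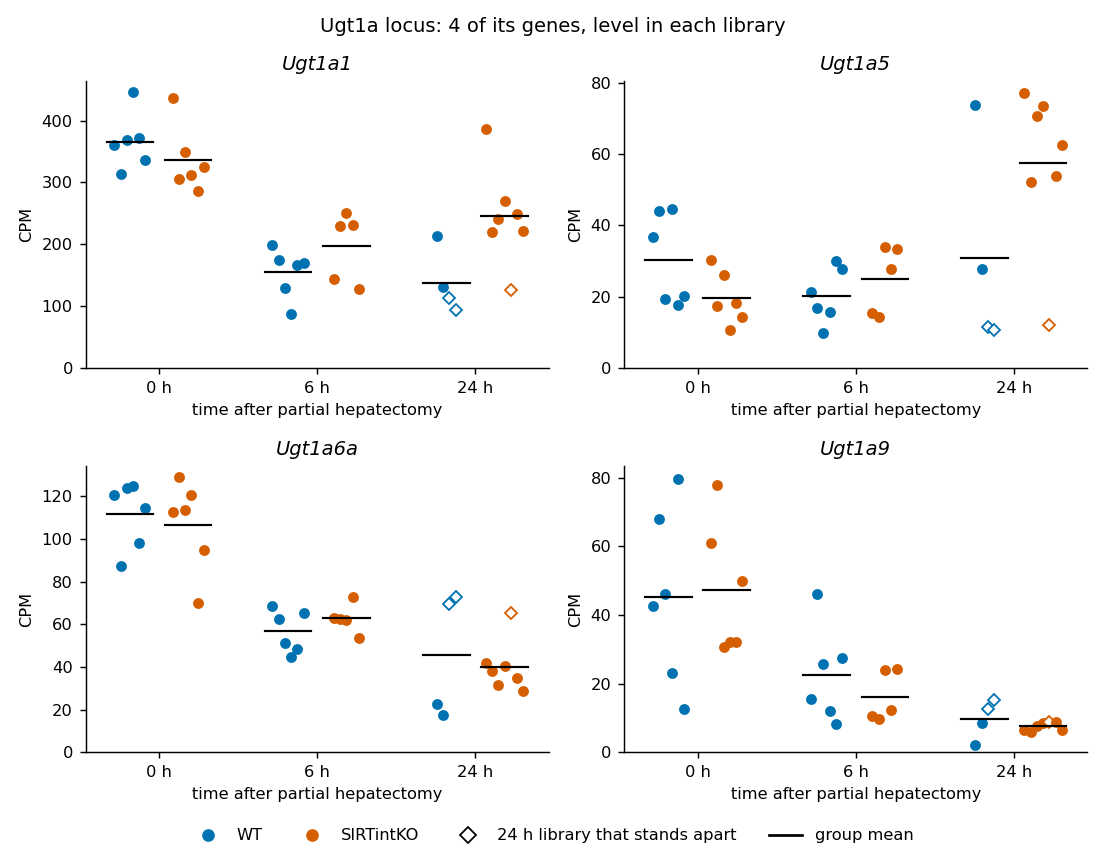
CPM (y axis, linear from 0) of 4 Ugt1a genes in each library by time and genotype, with the mean of each group as a bar and the 3 libraries that stood apart as open diamonds. Ugt1a5 lies at 52.2 to 77.1 CPM in 6 SIRTintKO libraries at 24 h, and the diamonds lie at 10.7 to 12.01 CPM, whereas the diamonds hold the highest Ugt1a6a levels of that time, 65.5 to 72.8 CPM.

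Ugt1a9 had medians of 44.4 and 41.1 CPM at 0 h in WT and SIRTintKO and of 10.6 and 7.60 CPM at 24 h, a fall of 2.22 ± 0.49 and 2.63 ± 0.40 on the log2 scale. Its WT call at 6 h, at the threshold, was lost in 15 of 34 fits that left out 1 library, where the log2 value ranged from -1.37 to -0.77. Ugt1a6a and Ugt1a6b, phenol glucuronosyltransferases, were called lower at 24 h in both genotypes, by 1.26 to 1.51 on the log2 scale. At 6 h they already stood at -0.97 and -0.99 in WT and at -0.76 and -0.89 in SIRTintKO, short of the fold threshold. Ugt1a7c fell at 6 h in both genotypes (-1.42 ± 0.41 and -1.93 ± 0.45) and, by the calls, at 24 h in WT (-1.19 ± 0.46, adjusted p = 0.0436) and not in SIRTintKO (-0.29 ± 0.37), with the WT call lost in 8 of 34 such fits (without WT 0 h replicate 1, 3, 4 or 6, WT 24 h replicate 1, 2 or 4, or SIRTintKO 24 h replicate 6). In WT Ugt1a7c ran from 1.38 through 2.07 to 3.39 CPM at 0 h, ran from 0.233 through 0.621 to 1.68 CPM at 6 h, and stood at 0.984, 0.457, 1.31 and 1.05 CPM at 24 h. In SIRTintKO it ran from 1.36 through 2.54 to 3.11 CPM at 0 h, stood at 0.577, 1.41, 0.126, 0.728 and 0.24 CPM at 6 h, and ran from 1.12 through 1.84 to 3.3 CPM at 24 h. The scarce Ugt1a10 was at 0 in 5 of 7 SIRTintKO libraries at 24 h. In WT it ran from 0.781 through 1.24 to 4.11 CPM at 0 h, ran from 0 through 0.0598 to 1.02 CPM at 6 h, and stood at 0, 0, 0.367 and 0.149 CPM at 24 h. In SIRTintKO it ran from 0.0655 through 0.962 to 3.14 CPM at 0 h, stood at 1.28, 0, 1.82, 0.607 and 0 CPM at 6 h, and ran from 0 through 0 to 0.141 CPM at 24 h. The groups at 0 h and 6 h overlapped in both genotypes. It was called lower in WT at 6 h (-3.24 ± 0.97) and 24 h (-3.82 ± 1.17) and in SIRTintKO at 24 h (-4.87 ± 1.11), and its WT call at 24 h was lost without WT 24 h replicate 2 (adjusted p = 0.0515). Leaving out WT 6 h replicate 1, WT 24 h replicate 3 or SIRTintKO 24 h replicate 5 moved these 3 values to -5.10, -5.01 and -5.71.

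The Ugt2 genes conjugate steroids and many drugs. Of the 8 members, 5 were called lower in WT and 6 in SIRTintKO at 6 h, and 6 in each genotype at 24 h, with none called higher. Of all genes, 8.40% and 8.70% were called lower at 6 h and 7.40% and 11.1% at 24 h, in WT and SIRTintKO. Ugt2b1 ran from 371 through 573 to 688 CPM in WT at 0 h and from 515 through 688 to 886 CPM in SIRTintKO. At 6 h it ran from 44.4 through 162 to 254 CPM in WT and stood at 64.8, 82.8, 205, 276 and 206 CPM in SIRTintKO. At 24 h it stood at 8.12, 29.7, 68.1 and 79.6 CPM in WT and ran from 11.1 through 49.7 to 61.2 CPM in SIRTintKO, with no overlap between the 0 h libraries and any later ones. The log2 fold changes were -1.78 ± 0.46 and -2.08 ± 0.50 at 6 h and -3.55 ± 0.58 (adjusted p = 3.94e-05) and -4.17 ± 0.48 (adjusted p = 5.55e-08) at 24 h, in WT and SIRTintKO.

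Ugt2b35 had a lower median at 6 h than at 24 h in both genotypes. It ran from 88.3 through 134 to 169 CPM in WT at 0 h, from 19.6 through 29.5 to 52.5 CPM at 6 h, and stood at 57.4, 14.6, 87.4 and 77.2 CPM at 24 h. In SIRTintKO it ran from 109 through 140 to 168 CPM at 0 h, stood at 41.6, 57.5, 91.3, 35.3 and 29.1 CPM at 6 h and ran from 60.8 through 81.2 to 166 CPM at 24 h. The fall at 24 h was called in WT (-1.18 ± 0.36, adjusted p = 0.0111, lost at 0.0556 without WT 24 h replicate 2) and not in SIRTintKO (-0.65 ± 0.30, adjusted p = 0.0646). The change from 6 to 24 h was 0.86 and 0.82 on the log2 scale and was called in neither genotype.

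Ugt2b5, the most abundant Ugt gene per kilobase at 0 h, fell to a log2 value of -1.27 ± 0.32 in WT and -1.41 ± 0.27 in SIRTintKO at 24 h, and the WT call was lost on the fold threshold without WT 24 h replicate 2 (-0.98). In WT Ugt2b5 ran from 434 through 629 to 673 CPM at 0 h, ran from 181 through 254 to 514 CPM at 6 h, and stood at 180, 81.2, 356 and 370 CPM at 24 h. In SIRTintKO it ran from 555 through 682 to 823 CPM at 0 h, stood at 241, 344, 414, 353 and 257 CPM at 6 h, and ran from 133 through 248 to 361 CPM at 24 h. Its 24 h libraries lay below every 0 h library. Ugt2b34 fell at 24 h by 1.14 ± 0.38 and 1.52 ± 0.32, Ugt2b36 by 1.77 ± 0.34 and 1.54 ± 0.28 and Ugt2a3 by 1.74 ± 0.28 and 2.28 ± 0.23, in the same order. The value of Ugt2b34 in WT rested on libraries that differed widely, at 45.9, 38.8, 249 and 246 CPM, the latter pair being those that stood apart. Its call was lost without WT 24 h replicate 1 or 2 (adjusted p up to 0.0953), and its log2 value was -2.88 ± 0.30 without the 3 libraries.

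Ugt2b38 was present in some mice and near 0 in others in every group before 24 h. It exceeded 5 CPM in 12 of the 34 libraries and lay under 0.2 CPM in 20, with 2 of 6 WT and 4 of 6 SIRTintKO libraries over 5 CPM at 0 h, 3 of 6 and 2 of 5 at 6 h, and 0 of 4 and 1 of 7 at 24 h. Where it was present at 0 h it stood at 6.79 and 19.7 CPM in WT and at 7.81, 16.99, 25.8 and 30.7 CPM in SIRTintKO. With all 4 WT libraries at 0 no fold is given for WT at 24 h, and the SIRTintKO call at 24 h (-3.78 ± 1.54, adjusted p = 0.042) was lost in 9 of 34 fits that left out 1 library (any SIRTintKO 24 h library but replicate 2, or SIRTintKO 0 h replicate 3, 5 or 6), was -5.87 without SIRTintKO 24 h replicate 2, and was lost without the libraries that stood apart. Ugt2b38 shared 44.1% of its 31-base words with Ugt2b5, which is far more abundant, so that its level rests on how the authors' quantification divided those reads. Ugt2b37 ranged from 0.572 to 17.6 CPM and shared 25.9% of its words with Ugt2b5. Promoters of this trio are shown because of that likeness (GRCm38.p6, minus strand, chr5:87140341-87140590 for Ugt2b5, chr5:87254789-87255038 for Ugt2b37 and chr5:87424204-87424453 for Ugt2b38), with AGGTCA in capitals at -22, -39 and -25 and a match to TTGCNNAA at -74 in Ugt2b5.
Ugt2b5: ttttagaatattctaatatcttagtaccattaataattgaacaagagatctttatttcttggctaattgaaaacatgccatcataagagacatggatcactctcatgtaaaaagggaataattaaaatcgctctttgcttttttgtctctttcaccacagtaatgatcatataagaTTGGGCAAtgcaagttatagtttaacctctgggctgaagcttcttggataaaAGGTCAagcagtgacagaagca
Ugt2b37: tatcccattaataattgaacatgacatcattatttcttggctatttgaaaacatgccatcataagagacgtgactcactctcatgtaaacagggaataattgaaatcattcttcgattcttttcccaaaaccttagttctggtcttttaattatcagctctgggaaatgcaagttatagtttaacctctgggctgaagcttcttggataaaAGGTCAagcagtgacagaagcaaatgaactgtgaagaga
Ugt2b38: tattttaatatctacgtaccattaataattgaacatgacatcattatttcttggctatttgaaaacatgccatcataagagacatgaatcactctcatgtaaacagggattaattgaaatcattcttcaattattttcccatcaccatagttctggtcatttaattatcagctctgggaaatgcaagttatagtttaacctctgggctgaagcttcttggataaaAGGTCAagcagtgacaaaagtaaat

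At their best ungapped offset, Ugt2b37 and Ugt2b38 were identical at 222 of 236 bases (94.1%), and Ugt2b5 and Ugt2b38 at 145 of 242 (59.9%).

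**Figure D4:**
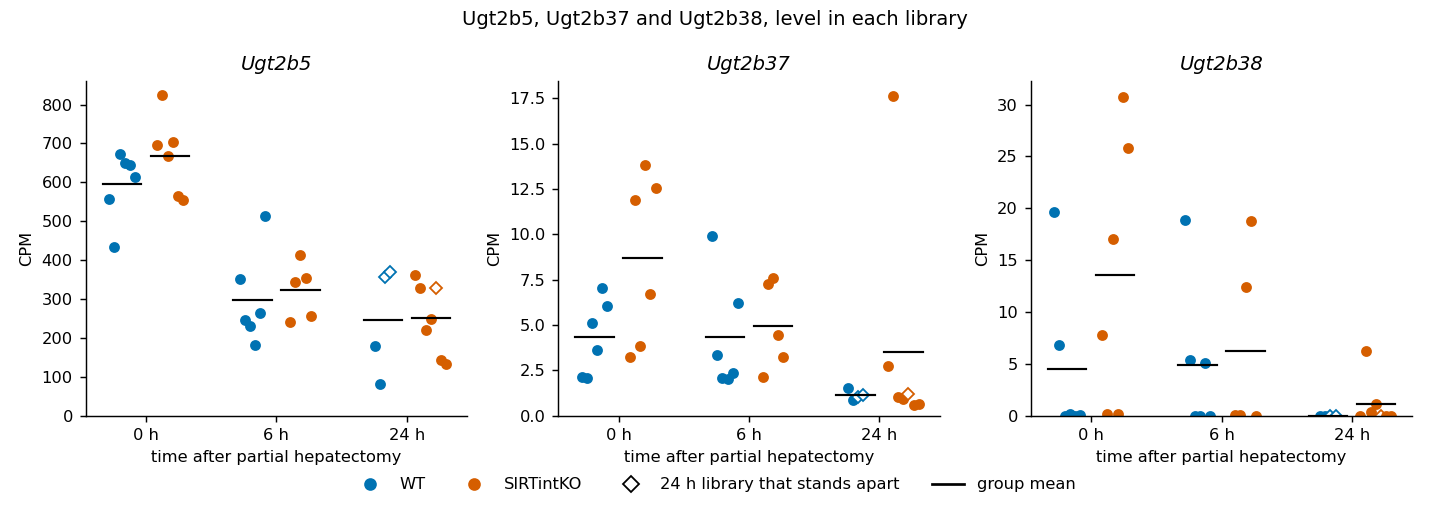
CPM (y axis, linear from 0) of Ugt2b5, Ugt2b37 and Ugt2b38 in each library by time and genotype, with the mean of each group as a bar and open diamonds for the 3 libraries that stood apart. Ugt2b38 is over 5 CPM in 12 libraries and at 0 in 14, while Ugt2b5 stays at or above 81.2 CPM in all 34.

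The 2 Ugt3 genes carry symbols that differ between annotations: the gene the files call Ugt3a2 (ENSMUSG00000072664) is named Ugt3a1 in GENCODE vM21, and the reverse holds for ENSMUSG00000049152. The symbols of the files are kept here. The gene listed as Ugt3a1 was called lower at 24 h, by 1.46 ± 0.25 in WT and 1.91 ± 0.21 in SIRTintKO. Its medians were 237 and 252 CPM at 0 h and 84.1 and 52.1 CPM at 24 h. At 6 h its log2 fold change was already -0.81 in WT and -0.76 in SIRTintKO, short of the fold threshold. The gene listed as Ugt3a2 ran from 41.6 through 66.0 to 91.1 CPM in WT at 0 h and from 46.2 through 67.4 to 76.2 CPM in SIRTintKO. At 6 h it ran from 21.7 through 41.8 to 49.9 CPM in WT and stood at 43.5, 60.0, 46.2, 63.1 and 31.98 CPM in SIRTintKO. At 24 h it stood at 27.4, 16.9, 43.8 and 48.1 CPM in WT and ran from 5.38 through 13.8 to 28.6 CPM in SIRTintKO. Its fall was called in SIRTintKO (-2.0 ± 0.27, adjusted p = 7.87e-07) and not in WT (-0.98 ± 0.32, adjusted p = 0.0172), and was -1.57 and called in WT without the libraries that stood apart.

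Genotype made no called difference to any of the 25 genes at 0 h or 6 h, where 0% of all genes tested were called at either time, and none of the 25 had an unadjusted p under 0.05. At 24 h, 1 member was called lower in SIRTintKO, against 1.30% of all genes, and 0 were called higher, against 1.38%. It was the gene listed as Ugt3a2, with a log2 difference of -1.12 ± 0.30 (adjusted p = 0.0243), whose libraries overlapped between genotypes. The call was lost without WT 24 h replicate 3 or 4 or SIRTintKO 24 h replicate 6, with adjusted p up to 0.0887 and a log2 difference between -1.35 and -0.91 over all 34 such fits, and by a fit of the 24 h libraries alone. With all 3 libraries that stood apart left out, the difference was -0.70 ± 0.33 (adjusted p = 0.142). With no fold threshold, 2 members had an adjusted p under 0.05, against 5.81% of all genes: Ugt3a2 and Ugt1a1, which was higher in SIRTintKO by 0.83 ± 0.24 (95% interval 0.34 to 1.33, adjusted p = 0.0377). Of the fits that left out 1 library, the count moved most without WT 24 h replicate 1, where 4 members were called: Ugt3a2 lower and Ugt1a1, Ugt1a5 and Sult1d1 higher in SIRTintKO. In the fit of all libraries Sult1d1 differed by 0.89 ± 0.28 (adjusted p = 0.0552), with 62.4, 48.2, 37.8 and 35.5 CPM in WT and a range of 40.9 through 92.6 to 131 CPM in SIRTintKO.

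Leaving out the 3 libraries changed which members were called. Ugt2b34 (1.23 ± 0.27, adjusted p = 0.0023), Ugt2b35 (1.36 ± 0.45, adjusted p = 0.0362), Ugt2b36 (1.17 ± 0.38, adjusted p = 0.0316) and Sult1b1 (1.19 ± 0.38, adjusted p = 0.0321) were then higher in SIRTintKO, where 4.89% of all genes were called higher and 3.29% lower, and these values rest on 2 WT libraries. With all libraries the same 4 genes stood at -0.30, 0.60, 0.27 and 0.82. Of the interactions of genotype with time, which ask whether the change from 0 h differed between genotypes, none of the 25 was called at 6 h, where 0% of all genes were, and none at 24 h, where 0.00668% were. The smallest adjusted p at 24 h was 0.217 for Ugt1a1 (0.96 ± 0.32). Without WT 24 h replicate 1 the interaction of Ugt1a5 was called (2.40, adjusted p = 0.0491). At an unadjusted p under 0.05 the counts were 0 at 6 h and 5 at 24 h, beside 457 and 1904 of all 14980 genes, and DESeq2 called none at either time. Without the 3 libraries 2 interactions were called, Ugt2b34 (1.14 ± 0.31, adjusted p = 0.0268) and Sult1e1 (-3.02 ± 0.92, adjusted p = 0.0445), where 2.33% of all genes were called higher and 1.7% lower. Of the 9 neutrophil and monocyte markers tested, Csf3r (1.75) and Ccr2 (1.59) were called higher in SIRTintKO than in WT at 24 h, though not in a fit of these groups alone. In the 8 libraries that did not stand apart the summed markers overlapped, at 108 and 166 CPM in WT and 107 to 1114 in SIRTintKO. The part of cell makeup in these values was not tested.

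**Figure D5:**
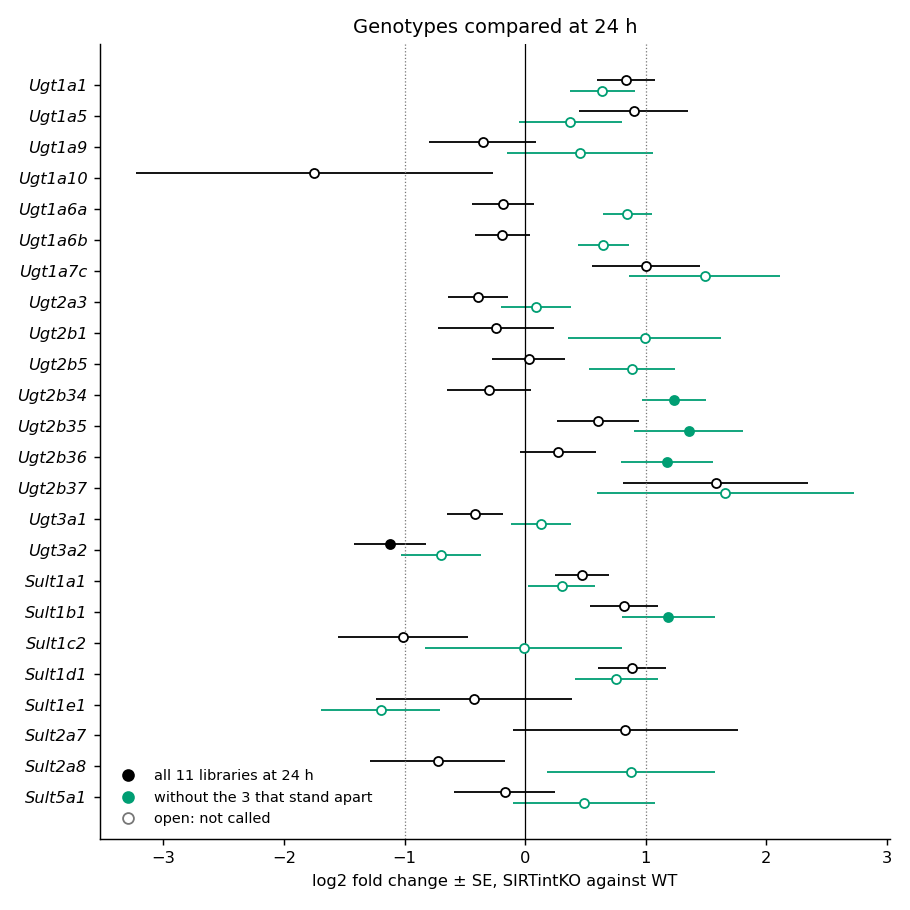
Log2 fold change of SIRTintKO against WT at 24 h (x axis, ± SE) with all 11 libraries (black) and without the 3 that stood apart (green), filled where called. Ugt2b38, and in green Ugt1a10 and Sult2a7, are left out because their WT libraries held 0 or 1 count. Ugt3a2 is the gene called in black, and Ugt2b34, Ugt2b35, Ugt2b36 and Sult1b1 are those called in green.

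Of 7 genes that supply UDP-glucuronic acid, 1 was called higher in each comparison with 0 h, the phosphoglucomutase Pgm2 (log2 fold change 1.27 and 1.26 at 6 h, 1.49 and 2.14 at 24 h, in WT and SIRTintKO), and 2 were called lower in WT at 6 h, Ugp2 (-1.12 ± 0.17), which makes UDP-glucose, and Slc35d2 (-1.2 ± 0.15), a transporter of nucleotide sugars. Their medians ran from -0.06 to 0.11 on the log2 scale over the 4 comparisons. Of 9 genes of PAPS supply, Papss2, a PAPS synthase, fell at 24 h in both genotypes (-1.01 ± 0.22 and -1.06 ± 0.18), and the list held 0 to 1 called higher and 0 to 3 lower (Slc26a2 and Slc35b3 higher, Slc26a1 and Suox lower beside Papss2). Of 7 deconjugating hydrolases, 1 was called, the arylsulfatase Arsg in WT at 6 and 24 h (1.21 and 1.10).

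The counts of these lists and the next stand beside the shares of all genes given above, 8.40%, 8.70%, 7.40% and 11.1% lower and 7.17%, 7.86%, 8.32% and 11.9% higher in WT at 6 h, SIRTintKO at 6 h, WT at 24 h and SIRTintKO at 24 h. Of 6 transporters that export conjugates, 2, 2, 3 and 1 were called lower in that order, with none called higher. Abcc3, which exports glucuronides across the basolateral membrane, was higher in SIRTintKO than in WT at 24 h (1.45 ± 0.40, adjusted p = 0.03), a call lost without WT 24 h replicate 2, 3 or 4 or SIRTintKO 24 h replicate 1 or 2, in a fit of these groups alone, and without the 3 libraries that stood apart (1.32, adjusted p = 0.0613). Of 16 genes of methyl, acetyl and amino acid conjugation, 4, 6, 6 and 8 were called lower in the same order and 2, 1, 1 and 0 higher, with medians of -0.49 to -0.96. Inmt, a methyltransferase, fell by 4.87 ± 0.84 in WT and 5.30 ± 0.68 in SIRTintKO at 24 h, and Nnmt, which methylates nicotinamide, rose at 6 h (2.97 ± 0.33 and 2.70 ± 0.34).

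Of 16 regulators of conjugation genes, 3, 5, 0 and 4 were called lower in the same order and none higher. Nr1i3, the constitutive androstane receptor, fell at 6 h in both genotypes (-1.07 and -1.59), and Cebpa was lower in SIRTintKO than in WT at 24 h (-1.37, adjusted p = 0.0103, and -1.19 without the 3 libraries), a call lost in a fit of these groups alone. Of 14 other target genes of these regulators, 5, 2, 5 and 5 were called lower and 3, 2, 2 and 3 higher. Hsd3b5, a male-biased steroid enzyme, was called lower in all 4 comparisons (-7.52 and -6.81 at 6 h, -5.33 and -7.59 at 24 h, in WT and SIRTintKO), as was Cyp1a2 (-2.11, -1.86, -3.86 and -3.66), while Cyp2b10 (2.56, 2.77, 1.75 and 3.37) and Cyp4a14 (3.97, 3.14, 2.37 and 3.55) were called higher in all 4. In 1 or 2 of these comparisons Cyp4a10 and Nqo1 were called higher and Cyp3a11, Cyp1a1, Gclc, Nr0b2, Cyp7b1 and Cyp2d9 lower. Cyp3a11, the main steroid and drug hydroxylase of this set, was higher in SIRTintKO than in WT at 24 h (1.5, adjusted p = 0.0237, and 2.47 without the 3 libraries), as was Nqo1 (1.19, adjusted p = 0.0107, and 1.63 without the 3 libraries). Both calls were lost without WT 24 h replicate 2 and in a fit of these groups alone.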

How the data were processed

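RNA of 34 bulk liver libraries was sequenced by the authors as stranded poly(A) libraries. The deposited values are estimated counts per gene from STAR and Salmon on GRCm39, per the labels' processing notes (versions are not given in the sources used here), and 4.975% of them are not whole. They were rounded. The table holds 35 columns of values, of which 1 matches no label and was not used. For 1316 genes whose symbol had lost the letter x, the symbol was restored by gene ID, none of them a Ugt or Sult gene.

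Genes were filtered with filterByExpr, scaled by TMM and fitted by edgeR 4.0.16 (R 4.3.3) in its quasi-likelihood model with 1 mean for each genotype and time, over all libraries. Adjusted p-values are Benjamini-Hochberg values over the genes tested in the fit they come from. These were 14980 in the edgeR fit of all libraries and 15569 without the 3 libraries that stood apart. Shares of all genes refer to the same sets. DESeq2 1.42.0, edgeR's glmTreat, other filters, a replicate block, fits of the compared groups alone and leaving out each library were the alternatives. The model was tested on simulated data. The labels call the libraries of a group biological replicates, so p-values measure the spread between them. Library totals (14892122 to 23480492) limit precision for genes of a few counts. Members are given in full where they were called between genotypes, were among the 4 largest rises or 4 largest falls called in a comparison with 0 h, or were among the 4 highest in mean CPM, and genes of the pathway lists could be named where called. A regulator of the lists is not reported here. The members and lists were chosen with earlier results of these data known. Promoter letters come from RefSeq on GRCm38.p6, another build than that of the counts, and were matched by gene.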

Additional observations from a re-analysis of the deposited data

Results flagged for a closer look

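In 14 of 149 sets of libraries (1 gene in 1 group), the highest or lowest library lay apart from the others by Dixon's ratio of its gap to the range, where chance gives about 1 in 20 sets. Among the 7 SIRTintKO libraries at 24 h, replicate 5, which stood apart over all genes, was lowest for Ugt1a5 (12.01 CPM, next 52.2, ratio 0.618) and highest for Ugt1a6a (65.5, next 42.1, ratio 0.639) and Ugt2b34 (232, next 133, ratio 0.607). In the same group, replicate 1 was highest for Ugt2b35 (166 CPM, next 104, ratio 0.591) and Sult2a7 (4.03, next 1.03, ratio 0.745), and replicate 2 for Ugt2b37 (17.6, next 2.71, ratio 0.875) and Ugt2b38 (6.24, next 1.14, ratio 0.817).

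Ugt2b38 was also highest in WT replicate 1 at 0 h (19.7 CPM, next 6.79, ratio 0.655) and in WT replicate 1 at 6 h (18.9, next 5.32, ratio 0.718), which are different mice. Sult1e1 was highest in WT replicate 5 at 0 h (0.66 CPM, next 0.215, ratio 0.674), WT replicate 6 at 6 h (3.97, next 2.06, ratio 0.683) and SIRTintKO replicate 3 at 6 h (2.64, next 1.76, ratio 0.860). Sult1b1 was lowest in WT replicate 2 at 24 h (2.80 CPM, next 7.81, ratio 0.962), and Ugt1a10 was highest in WT replicate 1 at 6 h (1.02, next 0.131, ratio 0.872).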

How the results depend on the processing

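Over the 81 calls of the 25 genes, fits that left out 1 library gave 2754 values, of which 2663 kept their call and 91, from 17 calls, lost it. The other alternatives with a fold threshold and single genes gave 702 values, of which 623 kept it and 79, from 56 calls, lost it. None of these values changed sign, whereas Ugt2b34 between genotypes at 24 h, not called at -0.30, was called at 1.23 without the 3 libraries that stood apart. Over the fits that left out 1 library, the count of members called ranged from 13 to 17 (WT) and 11 to 14 (SIRTintKO) at 6 h, 13 to 20 and 17 to 19 at 24 h, and 3 to 5 and 9 to 12 for 24 h against 6 h. Between genotypes it was 0 in each such fit at 0 h and 6 h and 0 to 4 at 24 h, and for the interactions 0 at 6 h and 0 to 1 at 24 h. Testing against the fold threshold itself (glmTreat) left 2 and 2 members at 6 h, 7 and 12 at 24 h and 1 and 2 for 24 h against 6 h, in WT and SIRTintKO. It left 0 between genotypes at 24 h. For WT at 24 h against 6 h, DESeq2 called 7, a filter of 10 counts in every library 2, the groups compared alone 0, and the fit without the 3 libraries that stood apart, an alternative chosen after seeing the data, 14. Between genotypes at 24 h the count was 2 with no fold threshold, 0 with the groups compared alone and 4 without the 3 libraries, which also gave 2 interactions at 24 h. The cause of these moves was not tested. Libraries of different groups that share a replicate number did not deviate together (correlations from -0.31 to 0.22), so the numbers only name samples. The fit with the replicate block called 0 members between genotypes at 24 h, where Ugt3a2 stood at -1.0.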
